A study of Homo sapiens with 6 samples.

Results

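The class 3 semaphorins are the 7 secreted semaphorins of the human genome (SEMA3A to SEMA3G), and the neuropilins NRP1 and NRP2 are their ligand-binding receptors. These 9 genes were followed in RNA sequencing of U-2 OS cells, a polyploid osteosarcoma line, after knockdown of SFPQ, a nuclear RNA- and DNA-binding protein with roles in transcription and splicing. Members were selected by symbol, with the large difference of SEMA3E in this same contrast in view, and all 9 of the 60664 genes in the count table had enough counts to enter the fit of 29022 genes. Because the family was chosen by this contrast, member values are given as a description, without a test. The question addressed was how each ligand and receptor differed between the groups, and how that difference related to gene span, the genomic length from the first to the last annotated base with introns included.

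Cells received control siRNA (siCTRL, 3 libraries) or siRNA against SFPQ (siSFPQ, 3 libraries), at 30 nM in the transfection protocol, with no other agent or allele separating the groups. Only this cell line was profiled, the libraries were made from polyA RNA, and the labels do not give the time from transfection to harvest. The study describes its RNA-seq replicates as biological replicates. Total counts ranged from 43469321 to 47119203 per library, so that 3 counts, taken as the detection floor, corresponded to 0.0642 to 0.0676 CPM, a gene's counts scaled to library size. SFPQ itself had 22338, 23139 and 21753 counts in siCTRL and 3140, 3863 and 3151 in siSFPQ, a log2 fold change of -2.73 (SE 0.05). Of 8 osteoblast-lineage markers, RUNX2 (2541 to 2872 counts), COL1A1 and SPARC were abundant in every library, whereas SP7, IBSP and BGLAP had 0 to 6 counts and COL1A2 31 to 55. Their summed normalized count was 230632 to 245781 in siCTRL and 197023 to 198477 in siSFPQ, with 2 of the 6 tested lower (COL1A1 and SPARC) and BGLAP higher at an adjusted p under 0.05. Of all genes tested, 22.1% were lower and 22.4% higher at that limit.

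Class 3 semaphorins act at a distance as guidance cues for axons, neural crest cells and endothelial cells. Most of them bind a neuropilin, which holds the ligand, paired with a plexin of class A, whose cytoplasmic part carries the signal to small GTPases and the actin cytoskeleton. SEMA3E is the exception, since it binds plexin D1 directly. Neuropilins also serve as co-receptors for vascular endothelial growth factors (VEGFs), and in bone SEMA3A is known to restrain osteoclasts and to favour osteoblasts.

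The genes form 4 genomic groups. SEMA3C, SEMA3E, SEMA3A and SEMA3D lie in this order on the minus strand of chromosome 7, SEMA3F, SEMA3B and SEMA3G on chromosome 3, NRP1 on chromosome 10 and NRP2 on chromosome 2. Sequences just upstream of the start are shown for the gene with the largest difference, SEMA3E, for its chromosome 7 neighbour SEMA3D, and for SEMA3G, a short chromosome 3 gene. Each run is 120 bases ending at the base before the RefSeq start, 5′ to 3′ on the gene's strand (minus in all 3, GRCh38.p14), with CpG dinucleotides in capitals. They lie at chr7:83649140-83649259, chr7:85187057-85187176 and chr3:52445104-52445223.
SEMA3E: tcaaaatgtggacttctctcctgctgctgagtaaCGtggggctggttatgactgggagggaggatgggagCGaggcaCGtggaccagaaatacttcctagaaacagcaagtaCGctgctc
SEMA3D: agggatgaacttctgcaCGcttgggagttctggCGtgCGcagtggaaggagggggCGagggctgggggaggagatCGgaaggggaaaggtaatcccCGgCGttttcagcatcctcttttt
SEMA3G: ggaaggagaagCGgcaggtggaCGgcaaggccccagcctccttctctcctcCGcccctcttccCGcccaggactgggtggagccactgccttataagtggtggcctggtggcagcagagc
RefSeq promoters of 300 bases, 250 before the start and 50 from it, were matched for 7 of the 9 genes, the other two being SEMA3A and NRP1. CpG counts in these windows were 6 for SEMA3E, 8 for SEMA3G, 9 for SEMA3B, 14 for SEMA3D, 33 for NRP2, 46 for SEMA3C and 47 for SEMA3F, beside a median of 14 over 35116 promoters. SEMA3E and SEMA3C, which had the largest differences between the groups, differed widely, with fewer CpGs in 33.7% and 97.1% of all promoters. The letters TATAAA, searched on both strands, occurred in none of the 7 windows and in 11.5% of all promoters, and GGGCGG on either strand occurred in SEMA3B, SEMA3C, SEMA3F, SEMA3G and NRP2 and in 45.0% of all promoters.

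All 4 chromosome 7 semaphorins were lower in siSFPQ, from 39.7-fold for SEMA3E to 1.5-fold for SEMA3D. Values per library are normalized counts, scaled by TMM to a common library size. SEMA3E (ENSG00000170381, chr7:83363238-83649139), the plexin D1 ligand, stood at 3709, 3868 and 3849 in siCTRL and at 74.3, 106 and 107 in siSFPQ. All 3 siSFPQ libraries were far below the siCTRL libraries, at 2.52% of the control mean (3809 ± 86.8 against 95.5 ± 18.4, SD, n = 3 each). The log2 fold change was -5.31 (SE 0.077), the 4th lowest among 15641 genes with a mean of at least 1 CPM. With each library left out it ran from -5.40 to -5.15. The siSFPQ libraries still held 72, 108 and 108 raw counts of SEMA3E, well above the floor of 3.

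SEMA3C (ENSG00000075223, chr7:80742538-80922359), a ligand of both neuropilins with known roles in outflow tract development, was the most abundant semaphorin of the family in siCTRL, at 11613, 12407 and 11961. In siSFPQ it stood at 1846, 2210 and 1972. The groups were separated by a wide gap, with 16.8% of the control mean left (11994 ± 398 against 2009 ± 185, log2 fold change -2.58, SE 0.048), and 1.29% of the 15641 genes had a lower value.

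SEMA3A (ENSG00000075213, chr7:83955777-84492724), the founding collapsin and an NRP1 ligand, stood at 1220, 1353 and 1329 in siCTRL and at 570, 687 and 570 in siSFPQ. The siSFPQ libraries were at 46.9% of the control mean (log2 fold change -1.09, SE 0.072), without overlap. SEMA3D (ENSG00000153993, chr7:84995553-85187056), a ligand known from neural crest and vascular patterning, stood at 355, 409 and 360 against 212, 316 and 218. The groups again did not overlap, but replicate 2 of siSFPQ (316) came closest to the lowest control (355), and the SD of siSFPQ (58.3) was the larger (log2 fold change -0.59, SE 0.12). Without that library the log2 fold change of SEMA3D was -0.81.

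On chromosome 3 the 3 ligands went in different directions. SEMA3B (ENSG00000012171, chr3:50267558-50277546), a ligand with reported tumour-suppressive activity, was the only semaphorin of the family with higher values in siSFPQ. It stood at 1970, 1809 and 1917 in siCTRL and at 4185, 3842 and 4051 in siSFPQ. Every siSFPQ library was at least at 202% of the control mean, and the log2 fold change was 1.08 (SE 0.046). SEMA3B-AS1, the antisense gene, overlaps SEMA3B by 7 bp and had 76 to 107 counts in siCTRL and 149 to 174 in siSFPQ. The libraries were stranded, but the strand setting of the counting is not given in the sources used here. Whether reads within this overlap were assigned by strand is therefore not known. The overlap of 7 bp is short beside the 9.99 kb of SEMA3B.

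SEMA3F (ENSG00000001617, chr3:50155045-50189075), the principal NRP2 ligand, stood at 3776, 3738 and 3292 in siCTRL and at 1935, 1961 and 1950 in siSFPQ. The siSFPQ libraries were nearly identical (SD 13.1) and all lay below the controls, at 54.1% of their mean (log2 fold change -0.89, SE 0.049). Its antisense neighbour SEMA3F-AS1, with 1041 bp of overlap, had 25 to 47 counts. SEMA3G (ENSG00000010319, chr3:52433035-52445103), best known from endothelial cells, stood at 366, 423 and 329 against 260, 321 and 285. The groups were almost touching, with 329 the lowest control and 321 the highest siSFPQ value, and the log2 fold change was -0.37 (SE 0.11).

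The neuropilins went in opposite directions. NRP1 (ENSG00000099250, chr10:33177492-33336262), the receptor of SEMA3A and co-receptor of VEGFA, stood at 5540, 5968 and 5959 in siCTRL and at 1824, 1984 and 1920 in siSFPQ. No siSFPQ library exceeded 34.1% of the control mean, and the log2 fold change was -1.61 (SE 0.045). NRP2 (ENSG00000118257, chr2:205681990-205798133), the receptor of SEMA3F, was scarce, at 29.1, 41.0 and 49.1 in siCTRL and 74.3, 86.1 and 79.9 in siSFPQ. The groups did not overlap, and NRP2 in siSFPQ was at 201% of the control mean (log2 fold change 1.01, SE 0.23). The estimate moved to 0.83 without siCTRL replicate 1 and to 1.19 without siCTRL replicate 3.

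**Figure D1:**
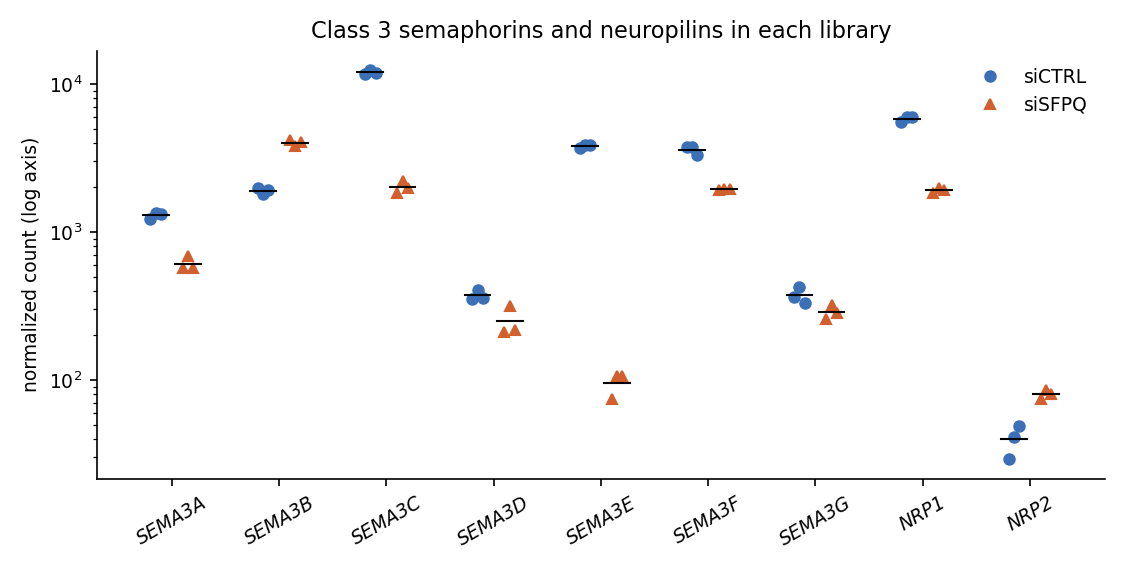
Normalized count (log axis) of the 9 genes in each library, with siCTRL as circles, siSFPQ as triangles and the mean of each group as a black line. SEMA3E shows the widest gap (3709 to 3868 against 74.3 to 107), while SEMA3B and NRP2 have the siSFPQ values on top.

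By the study's limits (log2 fold change past 1.5 in size, adjusted p under 0.05), 3 of the 9 genes were called lower (SEMA3E, SEMA3C and NRP1), as were 4.77% of all genes tested. None was called higher by edgeR, as against 5.54% of all genes, and the count was also 0 at an unadjusted p under 0.05 and with DESeq2. All genes tested include non-coding genes and genes under 1 CPM, whereas the 9 members are protein-coding with a mean of at least 1 CPM. Among such genes, grouped by span, 0.308% to 40.0% of a class were called lower and only 0.517% to 1.66% higher. At an adjusted p under 0.05 alone the counts were 7 lower and 2 higher, and 22.1% and 22.4% of all genes were past that limit in these directions. The siSFPQ libraries lay entirely below siCTRL for the same number of members, 7, and entirely above for 2, which was so for 25.4% and 26.9% of all genes. The median log2 fold change was -0.89 over the 9 genes and 0.02 over all genes tested. As these counts come from the contrast that chose the family, nothing is read from them.

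The siSFPQ libraries also differed among themselves. Replicate 2, which kept the most SFPQ (16.8% of the control mean, against 14.4% and 13.8%), was the library nearest to siCTRL for 7 of the 9 genes. SEMA3C, for example, was at 18.4% of the control mean in replicate 2 and at 15.4% and 16.4% in the others, and NRP1 at 34.1% against 31.3% and 33.0%. For SEMA3F the siSFPQ libraries were nearly equal, at 53.7%, 54.4% and 54.1%. Over all genes with at least 10 counts in a pair, replicate 2 was also the siSFPQ library nearest to each siCTRL library. Its chi-square statistic for each degree of freedom was 82 to 89.6 against them, and 88.7 to 102 for the other siSFPQ libraries. This nearness was therefore not particular to the family. For SEMA3E the low library was replicate 1 (1.95%, against 2.77% and 2.80%), and for NRP2 replicate 2 was the farthest from siCTRL (217%). The part of the remaining SFPQ in these values was not tested.

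The make-up of the ligand transcripts differed as well. These are RNA levels, and secreted ligand protein was not measured in these libraries. Levels of different genes were compared as CPM per kb of summed exon length, and shares as the percent of the summed CPM per kb of the 7 semaphorins. The sum over the 7 ligands was 82.0 ± 2.06 CPM per kb in siCTRL and 34.9 ± 0.534 in siSFPQ. The 4 chromosome 7 ligands held this gap, with a summed level of 56.9 ± 1.86 against 9.54 ± 0.996. The summed level of the 3 chromosome 3 ligands was 25.1 ± 1.35 against 25.3 ± 0.466, with overlapping ranges (23.6 to 26.2 and 24.8 to 25.8), with SEMA3B higher and SEMA3F and SEMA3G lower. This balance depended on the length used, since per kb of the longest transcript, an alternative chosen after seeing the data, the sum was 36.1 ± 1.77 against 39.9 ± 0.941, without overlap.

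SEMA3C provided 52.4 ± 1.02% of the summed transcript level in siCTRL and 20.6 ± 1.58% in siSFPQ. SEMA3B had 8.78 ± 0.574% in siCTRL and, at 43.8 ± 2.53%, was the leading ligand transcript in siSFPQ. The share of SEMA3E was 12 ± 0.306% and 0.707 ± 0.131%. SEMA3F, whose own level was lower in siSFPQ, nevertheless had a larger share there (25.3 ± 0.239% against 19.9 ± 1.28%), and SEMA3A held 3.74 ± 0.177% and 4.12 ± 0.391% with overlapping ranges (3.55 to 3.9 and 3.88 to 4.57).

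Ordered by CPM per kb, the siCTRL levels were SEMA3C (43 ± 1.43), SEMA3F (16.3 ± 1.22), NRP1 (11 ± 0.464), SEMA3E (9.85 ± 0.225), SEMA3B (7.20 ± 0.311), SEMA3A (3.07 ± 0.167), SEMA3G (1.61 ± 0.205), SEMA3D (0.991 ± 0.0793) and NRP2 (0.0625 ± 0.0159). No neighbours in this order had overlapping ranges, although NRP1 (10.5 to 11.3) and SEMA3E (9.59 to 10.0) came close, and with the length of the longest transcript in place of the summed exons SEMA3B ranked 4th and SEMA3E 5th. In siSFPQ the order was SEMA3B (15.3 ± 0.656), SEMA3F (8.83 ± 0.0594), SEMA3C (7.20 ± 0.661), NRP1 (3.62 ± 0.153), SEMA3A (1.44 ± 0.159), SEMA3G (1.25 ± 0.133), SEMA3D (0.659 ± 0.154), SEMA3E (0.247 ± 0.0476) and NRP2 (0.126 ± 0.00933). SEMA3A and SEMA3G could not be ordered there, since their ranges (1.35 to 1.62 and 1.13 to 1.39) overlapped. NRP1 was the main neuropilin in both groups, with a ratio of NRP1 to NRP2 level of 184 ± 42.5 in siCTRL and 28.8 ± 0.933 in siSFPQ. In these bulk libraries, fewer cells that express a gene and less of its RNA per cell cannot be told apart.

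The members were next set against gene span. Among 12958 protein-coding genes with a mean of at least 1 CPM, the median log2 fold change was 0.05 for spans under 10 kb, 0.07 for 10 to 30 kb, -0.01 for 30 to 100 kb, -0.25 for 100 to 300 kb and -1.21 over 300 kb. Genes called lower made up 1.45% of the 30 to 100 kb class, 10.7% of the 100 to 300 kb class and 40.0% of the longest class. Across all 12958 genes Spearman's rank correlation between span and log2 fold change was -0.30, and across the 9 members it was -0.70. These are descriptions across genes, which share the same 6 libraries and are not independent replicates.

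SEMA3E (286 kb) had the lowest value of the 2229 genes of its span class. SEMA3C (180 kb) and NRP1 (159 kb), of the same class, had lower values than most of it, with only 3.01% and 8.75% of the class below them. SEMA3A has the longest span in the family (537 kb) but sat in the middle of its class, with 52.9% of the 580 genes over 300 kb below its log2 fold change of -1.09. SEMA3D (192 kb) was also within the bulk of its class, with 31.0% of genes below it. NRP2 (116 kb) was at the other end of the same class, where 97.9% of genes had a lower value.

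Among the short genes, SEMA3B (9.99 kb) had a higher value than 96.6% of the 2295 genes under 10 kb. SEMA3F (34.0 kb) and SEMA3G (12.1 kb) lay toward the low side of their classes, with 4.46% and 9.72% of genes below them. Span alone did therefore not order the family, as SEMA3C (-2.58) was lower than the longer SEMA3D (-0.59), and NRP2 was higher although it exceeds 100 kb. SEMA3E is also shorter than SEMA3A by annotated span, but not by the Ensembl canonical transcript, at 286 kb against 239 kb. By that measure SEMA3A would fall in the 100 to 300 kb class.

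**Figure D2:**
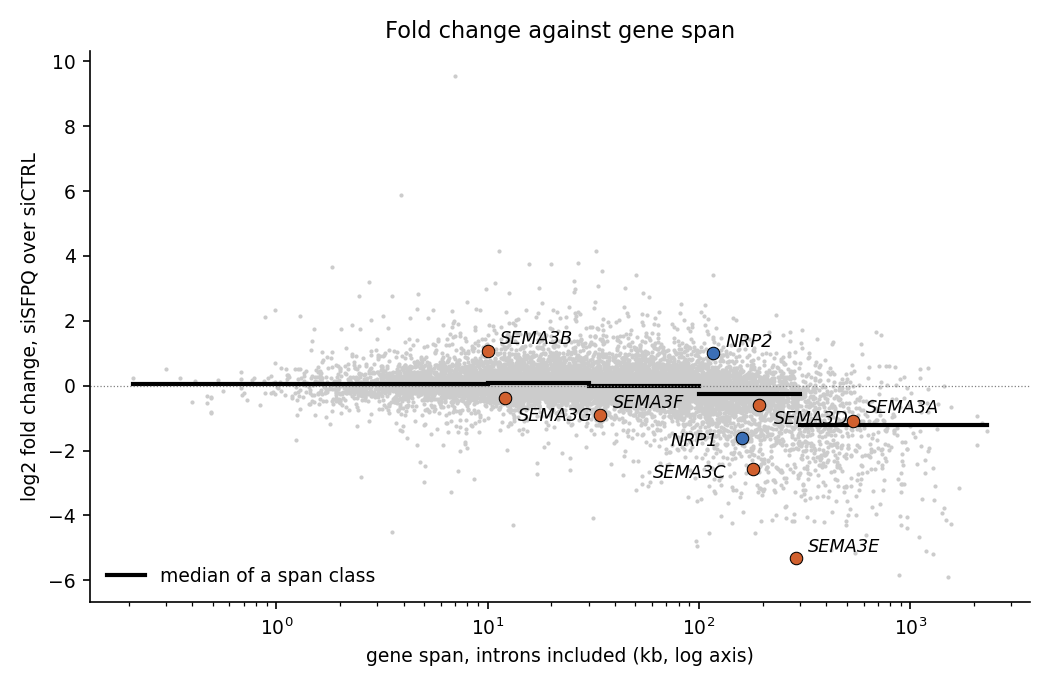
Log2 fold change, siSFPQ over siCTRL, against gene span in kb (log axis) for 12958 protein-coding genes (grey points), with the median of each span class as a black line, the 7 semaphorins in orange and the neuropilins in blue. The class median reaches -1.21 over 300 kb, and SEMA3E (286 kb, -5.31) is the lowest gene of the 100 to 300 kb class.

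Intron structure was examined after these values were seen. The longest intron of the Ensembl canonical transcript was 158 kb in SEMA3E, where it is the first intron, 87.9 kb in SEMA3C, 59.9 kb in NRP1, 59.5 kb in SEMA3A, 32.9 kb in SEMA3D and 25.4 kb in NRP2. It was 14.1 kb in SEMA3F, 2.0 kb in SEMA3G and 1.82 kb in SEMA3B. Spearman's rank correlation between longest intron and log2 fold change was -0.92 over the 9 genes and -0.33 over 12684 protein-coding genes with an intron. With the span of the canonical transcript, which for SEMA3A is 239 kb, the rank correlation over the 9 genes was -0.75, and with its exon length it was -0.38. As the measure was picked with the 9 values in view, the stronger correlation is a description of these genes.

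Position was described with the protein-coding genes within 1 Mb of a member that had a mean of at least 1 CPM. On chromosome 7 there were 4 such genes besides the semaphorins, with a median span of 434 kb, and all 4 were lower in siSFPQ at an adjusted p under 0.05 (edgeR, Benjamini-Hochberg). Of all genes tested, 22.1% were lower at that limit. All 4 exceed 300 kb, a span class with a median log2 fold change of -1.21, in which 40.0% of genes were called lower. CACNA2D1, which encodes an auxiliary subunit of voltage-gated calcium channels, fell from 2015 ± 152 to 103 ± 11.9 (log2 fold change -4.29, SE 0.087, adjusted p = 1.15e-28). PCLO, a scaffold protein of the presynaptic active zone that lies between CACNA2D1 and SEMA3E, fell from 17555 ± 540 to 6209 ± 124 (log2 fold change -1.5, SE 0.038, adjusted p = 3.96e-26), just short of the call limit. CD36, a fatty acid and thrombospondin receptor, fell from 71.8 ± 12 to 24.1 ± 9.28 (log2 fold change -1.56, SE 0.27, adjusted p = 1.29e-05).

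GNAI1, a G protein alpha subunit spanning 458 kb, differed little in comparison, at 2481 ± 97.9 and 2285 ± 38.2 (log2 fold change -0.12, SE 0.046, adjusted p = 0.0349). Differences thus varied along this gene-poor stretch among genes that are all long. Around the chromosome 3 semaphorins the genes were shorter, so position and span cannot be told apart. There were 73 genes there, with a median span of 14.9 kb and a median log2 fold change of 0.02. Of these, 26 were lower and 22 higher at an adjusted p under 0.05. The shares were 22.1% and 22.4% of all genes tested, a wider set with non-coding genes and genes under 1 CPM. Around the chromosome 3 semaphorins a single gene was called in each direction, namely CACNA2D2 (-2.07) and UBA7 (1.70), named after their values were seen. Near NRP1, 3 of 4 genes were lower, PARD3 (-1.42) the most, and near NRP2, 3 of 9 were lower and 3 higher, with PARD3B called lower (-2.40).

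**Figure D3:**
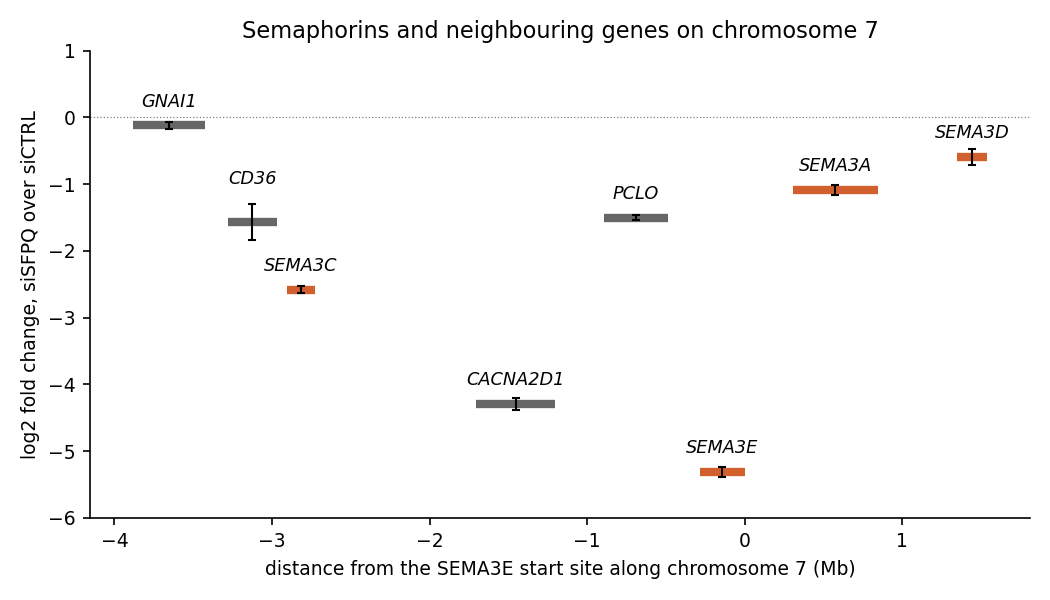
Log2 fold change of the chromosome 7 semaphorins (orange) and of neighbouring genes within 1 Mb (grey) against distance from the SEMA3E start site in Mb, with bars as long as each gene and vertical error bars for the SE. CACNA2D1 (-4.29) and SEMA3E (-5.31) are the lowest, while GNAI1 (-0.12) stays near 0.

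Plexins of classes A and D, the signalling partners of these ligands, did not share a direction. Of the 5, 3 fell and 2 rose at an adjusted p under 0.05 (edgeR with Benjamini-Hochberg adjustment). The shares of all genes tested in these directions were 22.1% and 22.4%. None of the 5 was past 1.5 on the log2 scale with edgeR, at an unadjusted p or with DESeq2. PLXND1, the receptor of SEMA3E, stood at 5538, 6074 and 5254 in siCTRL and at 10888, 10647 and 10887 in siSFPQ. It therefore rose 1.92-fold (log2 fold change 0.94, SE 0.042, adjusted p = 3.88e-19), in the direction opposite to its ligand. PLXNA2 rose from 1067 ± 83.8 to 1579 ± 17.4 (log2 fold change 0.57, SE 0.059, adjusted p = 7.31e-10) although its gene spans 222 kb. PLXNA4, at 525 kb the longest of the 5, fell from 303 ± 40.2 to 121 ± 20.7 (log2 fold change -1.33, SE 0.13, adjusted p = 3.64e-10).

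PLXNA3 fell slightly, from 3186 ± 44.6 to 2707 ± 112 (log2 fold change -0.24, adjusted p = 3e-05). PLXNA1, the most abundant class A plexin by normalized count, stood at 8750 ± 507 and 8003 ± 197 (log2 fold change -0.13, adjusted p = 0.00952). It missed the adjusted p threshold with scaling by library size alone (-0.07) and without siCTRL replicate 2 or siSFPQ replicate 1 (-0.09 each). Plexins of classes B and C, which mainly receive other semaphorins, had 3 of 4 higher and 1 that missed the threshold, with log2 fold changes from 0.03 to 0.32.

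The wider signalling list of 52 genes (plexins, adhesion co-receptors, VEGF ligands and receptors, intracellular effectors and the proprotein convertases that cleave semaphorins) had 51 genes tested. At an adjusted p under 0.05, 26 were lower, 15 higher and 10 missed the threshold, with a median log2 fold change of -0.15. Of all genes tested, 22.1% were lower and 22.4% higher at this limit. Past 1.5 on the log2 scale 4 were lower (DPYSL5, NRCAM, VEGFD and FARP1) and 0 higher, the latter also at an unadjusted p under 0.05 and with DESeq2. The shares of all genes called in these directions were 4.77% and 5.54%. Among protein-coding genes with a mean of at least 1 CPM, 0.308% to 40.0% of a span class were called lower and only 0.517% to 1.66% higher. DPYSL5, of the collapsin response mediator protein family, fell 11.2-fold, from 493 ± 24.7 to 44 ± 9.68 (log2 fold change -3.49, SE 0.14, adjusted p = 9.88e-21). NRCAM, a cell adhesion molecule of the L1 family that pairs with neuropilins, fell 8.39-fold, from 149 ± 12.6 to 17.8 ± 7.96 (log2 fold change -3.07, SE 0.23, adjusted p = 4.35e-13). FARP1, a guanine nucleotide exchange factor linked to class A plexins, fell 5.85-fold, from 2227 ± 76.7 to 381 ± 4.85 (log2 fold change -2.55, SE 0.062, adjusted p = 1.39e-26).

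These 3 genes span 103 kb, 309 kb and 313 kb. VEGFD, a ligand of VEGF receptors, had 7, 5 and 9 counts in siCTRL and 0, 0 and 3 in siSFPQ, so its call (adjusted p = 0.0423) rests on few reads and was lost with DESeq2 (adjusted p = 0.066) and without siCTRL replicate 1 or 3 or siSFPQ replicate 1 or 2 (adjusted p from 0.0506 to 0.156). Its log2 fold change of -2.67 moved from -2.14 without siSFPQ replicate 1 to -5.83 without siSFPQ replicate 3, which left only siSFPQ libraries at 0 counts. The other list genes with values here were picked after these were seen. L1CAM, the adhesion partner of NRP1 in SEMA3A signalling, fell from 10136 ± 443 to 4342 ± 324 (log2 fold change -1.22, SE 0.045, adjusted p = 1.49e-21) from a gene of 24.7 kb. CHL1, the remaining adhesion co-receptor, had at most 2 counts in any library and was not tested.

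Of the 28 effectors 15 fell, 6 rose and 7 missed the threshold, beside 22.1% lower and 22.4% higher of all genes tested. MICAL2, of the actin-oxidising enzyme family that acts below plexins, fell (log2 fold change -1.02, adjusted p = 2.23e-19), and RND3, a small GTPase, rose (0.59, adjusted p = 1.31e-14). Among the 5 VEGF ligands, 4 fell and PGF rose (0.73, adjusted p = 1.31e-08), with VEGFC at -0.75 (adjusted p = 3.49e-10) and VEGFA, the main NRP1-binding VEGF, at -0.33 (adjusted p = 3.44e-08). Of the VEGF receptors, FLT4 rose from 613 ± 47.7 to 854 ± 26.5 (adjusted p = 1.7e-06) and FLT1 from 17.4 ± 3.19 to 34.6 ± 0.599 (adjusted p = 0.0152), and KDR missed the threshold at 15.7 ± 6.02 and 17.5 ± 10.6.

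FURIN, the convertase that processes class 3 semaphorins, rose from 10566 ± 144 to 14013 ± 482 (log2 fold change 0.41, adjusted p = 2.79e-11). PCSK5 (-0.54) and PCSK7 (-0.28) fell, and PCSK6 missed the threshold. By span, the 20 tested list genes over 100 kb had 14 lower and 2 higher with a median of -0.40. The 31 shorter genes had 12 lower and 13 higher with a median of 0.08. The medians over protein-coding genes were -0.25 for 100 to 300 kb and -1.21 over 300 kb.

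**Figure D4:**
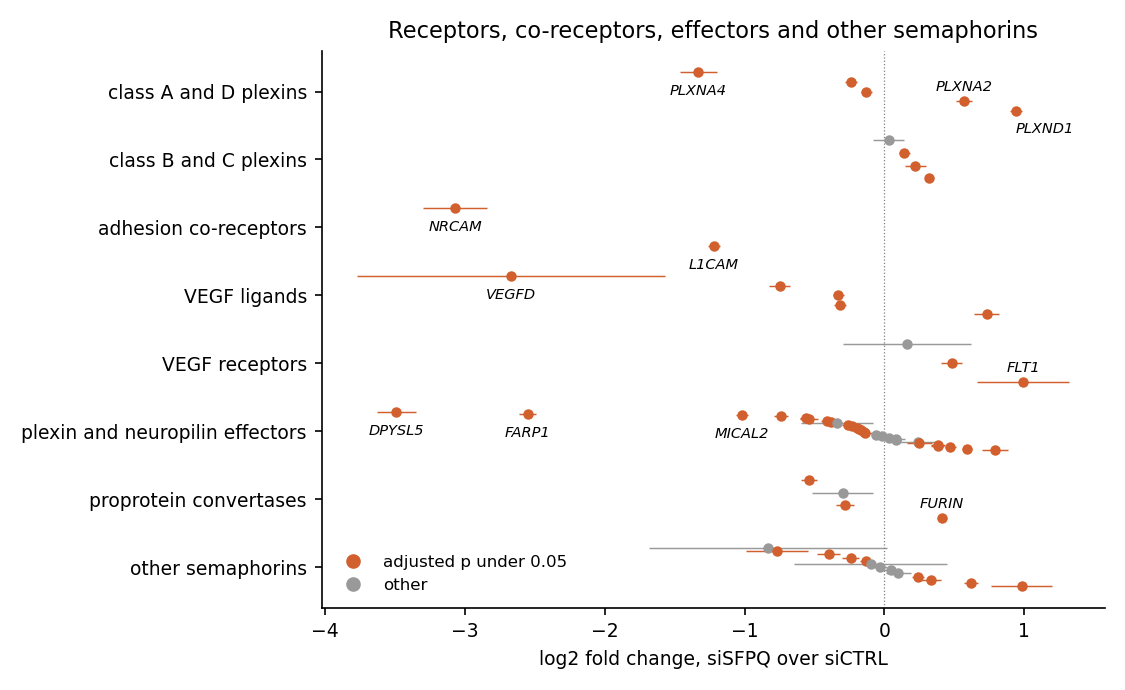
Log2 fold change, siSFPQ over siCTRL, of the tested genes of each signalling group and of the other semaphorins, with horizontal error bars for the SE and orange points where the adjusted p was under 0.05. DPYSL5 (-3.49), NRCAM (-3.07), VEGFD (-2.67, on 0 to 9 counts) and FARP1 (-2.55) lie farthest to the left, and no gene is past 1.5 on the right.

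Of the 13 semaphorins of the other classes, which are membrane-bound, 4 were lower, 4 higher and 5 missed the adjusted p of 0.05. All genes tested had 22.1% lower and 22.4% higher at that limit. None of the 13 was called in either direction by edgeR, at an unadjusted p under 0.05 with the same fold limit, or by DESeq2. Among protein-coding genes with a mean of at least 1 CPM, 0.308% to 40.0% of a span class were called lower and only 0.517% to 1.66% higher. The log2 fold changes of the 13 ran from -0.83 to 0.98 around a median of -0.03. SEMA6D rose from 46.4 ± 12.6 to 91.7 ± 9.98 (log2 fold change 0.98, SE 0.22, adjusted p = 3.18e-04) from a gene of 590 kb. SEMA5A, of 511 kb, fell from 74.4 ± 8.08 to 43.4 ± 9.11 (log2 fold change -0.77, SE 0.22, adjusted p = 0.0049), so that these long genes moved apart. SEMA4B, the most changed of the better expressed members, rose from 1528 ± 48.1 to 2344 ± 109 (log2 fold change 0.62, adjusted p = 2.45e-12). Over the plexins and these semaphorins together (22 genes) the rank correlation between span and log2 fold change was -0.19.

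The genes nearest to SEMA3E in their pattern over the 6 libraries were sought among 12957 protein-coding genes, by Euclidean distance between log2 normalized counts relative to each gene's siCTRL mean. The nearest was GPC6, a heparan sulfate proteoglycan of the cell surface (distance 0.643, log2 fold change -5.10). Also among the nearest 5 were NCAM2, a neural cell adhesion molecule (0.866, -5.17), NEGR1, an adhesion molecule of the IgLON family (0.997, -5.82), and PRKD1, a serine/threonine kinase (1.22, -4.61). None of these 4 lies on chromosome 7, and their spans were 1181 kb, 545 kb, 887 kb and 615 kb, each longer than the 286 kb of SEMA3E. As the libraries form a control and a knockdown group, this distance mostly selects genes with a similar log2 fold change. Genes called lower were most frequent over 300 kb (40.0%), so the long spans are not a separate result.

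Markers of other cell types were read beside these values, since semaphorins and neuropilins are well known from endothelium and nerve. Markers counted as lower or higher had an adjusted p under 0.05, as had 22.1% and 22.4% of all genes tested. Endothelial markers summed to 707 to 789 normalized counts in siCTRL and 363 to 412 in siSFPQ, with 2 of 6 lower (ERG, called at -4.18, and TEK) and 2 higher (CDH5 and VWF). Sums without the markers called lower were added after seeing the data. Taking out only lower markers shifts a sum toward higher siSFPQ values by construction, so no direction is read from these sums. Without ERG the sum was 255 to 325 in siCTRL and 337 to 385 in siSFPQ, so that the lower endothelial sum rested on ERG. Neuronal markers summed to 925 to 1061 and 701 to 750, with 2 of 5 lower (RBFOX3 and SNAP25, both called) and 2 higher (TUBB3, 1.17, and STMN2, 1.44). Without RBFOX3 and SNAP25 the sum was 250 to 355 in siCTRL and 530 to 571 in siSFPQ, so that the lower neuronal sum rested on these genes. Epithelial markers summed to 999 to 1075 and 535 to 582, with KRT14 called lower and 2 of 4 higher (CDH1 and KRT5), and without KRT14 to 287 to 384 and 347 to 396, which overlap. Of the leukocyte markers, PTPRC was called lower (26 to 39 counts in siCTRL and 5 to 14 in siSFPQ), CD14 had 0 to 9 counts and missed the threshold, and CD3E had at most 1 count. The part of these genes in the member values was not tested.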

How the data were processed

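RNA-seq libraries (Illumina TruSeq stranded mRNA, 150 bp paired ends) of 3 siCTRL and 3 siSFPQ samples were grouped by title. The authors deposited raw counts per Ensembl gene, made after alignment with STAR 2.7.9a to GRCh38 per the labels. The counting tool's strand setting is not given in the sources used here. All 6 columns matched a sample, and 0 were left unused. Gene names, spans and introns came from GENCODE release 44 (99.67% of genes matched).

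Genes with at least 10 counts in total were tested with edgeR 4.0.16 (quasi-likelihood, TMM, R 4.3.3), with Benjamini-Hochberg adjustment over 29022 genes. Each SE was derived from this fit, as the size of the log2 fold change divided by the square root of the F statistic. It rests on dispersion shared across genes and can be smaller than the spread of a gene's own libraries. A call required a log2 fold change past 1.5 in size with an adjusted p under 0.05, as in the study. The code was tested on simulated data. Replicates of a group differed by more than sampling noise, with a chi-square statistic of 3.77 to 5.49 for each degree of freedom. Alternatives were DESeq2 1.42.0, other scalings, filters and limits, a replicate block and leaving out each library.

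Members, gene lists and markers were chosen with earlier results of these data known. Named were all members, SFPQ, list genes called with a mean of at least 1 CPM, class A and D plexins, the 5 genes nearest to SEMA3E, and chromosome 7 neighbours within 1 Mb. Some items under this rule and some markers are not reported here. Others were named after their values were seen. Counting error alone underlies the floor of 3 counts.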

Additional observations from a re-analysis of the deposited data

How the results depend on the processing

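No log2 fold change of the 9 members, the 5 class A and D plexins, NRCAM, DPYSL5 or FARP1 reversed under the alternatives run. Of 108 member values, 97 moved by less than 1 SD between replicates and 11 by more, 7 of these for SEMA3F, whose siSFPQ libraries had a very small SD. Over these settings SEMA3E ranged from -5.40 to -5.15, SEMA3C from -2.67 to -2.51, NRP1 from -1.65 to -1.54, SEMA3A from -1.20 to -1.03, SEMA3D from -0.81 to -0.47, SEMA3F from -0.95 to -0.82, SEMA3G from -0.47 to -0.27, SEMA3B from 1.05 to 1.15 and NRP2 from 0.83 to 1.19. Of 96 values of these plexins and of NRCAM, DPYSL5 and FARP1, 93 stayed on their side of the threshold, and the 3 that did not were all PLXNA1. VEGFD, which is not among them, lost its call with DESeq2 (adjusted p = 0.066) and without any of 4 single libraries.

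Counts depended on the fold limit. With an adjusted p alone, 7 members were lower and 2 higher, and 26 and 15 genes of the signalling list, beside 22.1% and 22.4% of all genes tested. With a log2 fold change past 1, 4 members were lower and 2 higher, and 7 signalling genes lower. Past 2, 2 members were lower. The shares of all genes past these fold limits are not given here, so nothing is read from these counts. Leaving out 1 library at a time, members called lower stayed at 3 and signalling genes called lower at 3 to 4. The median of the 100 to 300 kb class was -0.19 with scaling by library size alone and -0.28 to -0.23 with libraries left out. Over 300 kb it was -1.15 with library size alone, -1.11 over all protein-coding genes tested, -1.13 at a mean of at least 10 CPM, -0.74 in the longest of 10 classes of equal gene number (180 to 2305 kb, which takes in shorter genes) and -1.23 to -1.17 with libraries left out. The rank correlation of span with log2 fold change was -0.14 with summed exon length in its place, and -0.32 to -0.29 with libraries left out. The cause of these shifts was not tested. Scaling by library size alone moved the median of all genes by 0.0632.

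The replicate numbers were not used as pairs in the main fit. Same-numbered libraries correlated at 0.00191, 0.0121 and 0.0153 in their deviations from the group means, although each library correlated best with its own number. Such low values cannot exclude pairing, since deviations from the mean of so few libraries are mostly noise. With the replicate block, 2659 genes were called in place of 2993, and members called lower (3) and signalling genes called lower (4) did not change in number. VEGFD, at 0 to 9 counts, is limited by depth.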
